A study of Mus musculus with 14 samples.

Results

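The transcriptome of CD4+ T cells polarized with IL-4 (Th2) was compared with that of cells activated without a polarizing cytokine (Th0). These are 4 of the 14 libraries of a study of mouse T helper cell media, taken by their labelled medium: Th2 replicates 1 and 2 and Th0 replicates 1 and 2. The values are FPKM (fragments scaled to transcript length and library size), summed over the transcripts of each gene. Of 23268 genes, 10664 averaged 1 FPKM or more in the Th2 or the Th0 libraries, and these were tested. All cells were naive CD4+ T cells of C57BL/6 mice, sorted as CD62L high, CD44 low and CD25 negative. They were cultured for 3 days on plate-bound antibodies to CD3 and CD28, each at 10 µg/ml. Th2 cells received IL-4 at 20 ng/ml and antibodies to IFN-γ at 10 µg/ml. For the Th0 medium no cytokine is named but antibodies against IFN-γ, against IL-4 and against IL-2, with no dose named. Antibodies to IL-4 and IL-2 are not named for the Th2 medium, so added IL-4 and the absence of these antibodies cannot be told apart in this contrast. The other 5 media share the activation and enter the fit. Th1 cells received IL-12 at 20 ng/ml and antibodies to IL-4 at 10 µg/ml. iTreg cells received TGF-β at 20 ng/ml, IL-2 at 50 U/ml and antibodies to IFN-γ. The remaining media are Th17_b, Th17_23 and IL27_plus_TGF_beta. The first combined antibodies to IL-2 (10 µg/ml) with IL-6 (20 ng/ml) and TGF-β (2 ng/ml). In Th17_23, antibodies to TGF-β (5 µg/ml) accompanied IL-23 (50 ng/ml) plus IL-1β and IL-6 (20 ng/ml each). The last paired IL-27 (20 ng/ml) with TGF-β (2 ng/ml). Separate mice or cultures are not named for the replicates. The p-values therefore reflect only how these libraries vary, which may be technical.

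Th2 cells are the helper T cells of allergy and of immunity to worms and other extracellular parasites. IL-4 binds a receptor built from the IL-4 receptor alpha chain and the common gamma chain, which activates the transcription factor STAT6. STAT6 raises Gata3, whose product opens the locus that holds the IL-4, IL-13 and IL-5 genes and restrains the Th1 programme.

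Relative to Th0 replicate 1, low FPKM values that fall on whole-read steps gave a depth of 0.971 and 0.763 for Th2 replicates 1 and 2 and of 0.826 for Th0 replicate 2. Across tested genes the replicates correlated at r = 0.988 in Th2 and 0.987 in Th0 cells, against 0.968 and 0.963 between Th2 and Th0 within a table; these are descriptions over genes of libraries that share a table. Cd4 had 188 and 232 FPKM in the Th2 libraries, against 232 and 245 FPKM in the Th0 libraries, and Cd3e had 202 and 198 FPKM in the Th2 libraries, against 235 and 184 FPKM in the Th0 libraries; neither was called. Of 14 T cell identity genes, all tested, 1 was called higher and 5 lower, and 1 or 2 were lower in each fit without 1 library. Cd5, an inhibitory coreceptor of T cells, had 167 and 192 FPKM in the Th2 libraries, against 258 and 250.4 FPKM in the Th0 libraries, a log2 change of -0.50 ± 0.08 (SE), with a limma adjusted p of 0.0028. Cd247, the zeta chain of the T cell receptor complex, had 104 and 104 FPKM in the Th2 libraries, against 63.8 and 76.8 FPKM in the Th0 libraries and rose by 0.56 ± 0.11 (SE), with a limma adjusted p of 0.0052; its call was lost without Th0 replicate 1. Cd8a had 0.00836 and 0 FPKM in the Th2 libraries, against 0.041 and 0.05 FPKM in the Th0 libraries, whereas Cd8b1, which encodes the other CD8 chain, had 6.27 and 7.22 FPKM in the Th2 libraries, against 6.66 and 7.73 FPKM in the Th0 libraries. The B cell markers summed to between 2.48 and 3.28 FPKM in Th2 and between 1.88 and 2.50 FPKM in Th0 cells. Of 14 myeloid markers, 11 were under the filter; Lyz2, Cd14, S100a8 and S100a9 were listed at 0 in all 4 libraries. An exact 0 can be a failed estimate here, since Hmgcs1, which every cell uses for sterol synthesis, is listed at 0 in all 14 libraries.

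Of the 10664 tested genes, 2035 (19.1%) were called at a limma adjusted p under 0.05. Of these, 642 (6.02%) were higher and 1393 (13.1%) lower in Th2 than in Th0 cells, and the median change over all tested genes was -0.07 on the log2(FPKM + 1) scale. The excess of lower calls depended on scaling: quantile normalization gave 992 higher and 1041 lower, and scaling to 1 median gave 885 and 1060. The shares of 6.02% higher and 13.1% lower are those against which the counts of each gene list below stand. The filter admits genes that are high in 1 group alone. Such listed genes could hardly have been called the other way. Large changes were more balanced, with 168 genes (1.58%) higher and 197 (1.85%) lower by a log2 change of 1 or more. In all, 365 genes (3.42%) were called by 1 or more either way. The FPKM of the groups did not overlap for 5843 genes (54.8%), which is the share against which the statements on overlap stand. Leaving out Th2 replicate 2, Th0 replicate 1 or Th0 replicate 2 lowered the count to 1008, 1235 or 1096, while the genes called by 1 or more numbered between 341 and 372 in every fit without 1 of the 4 libraries.

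**Figure D1:**
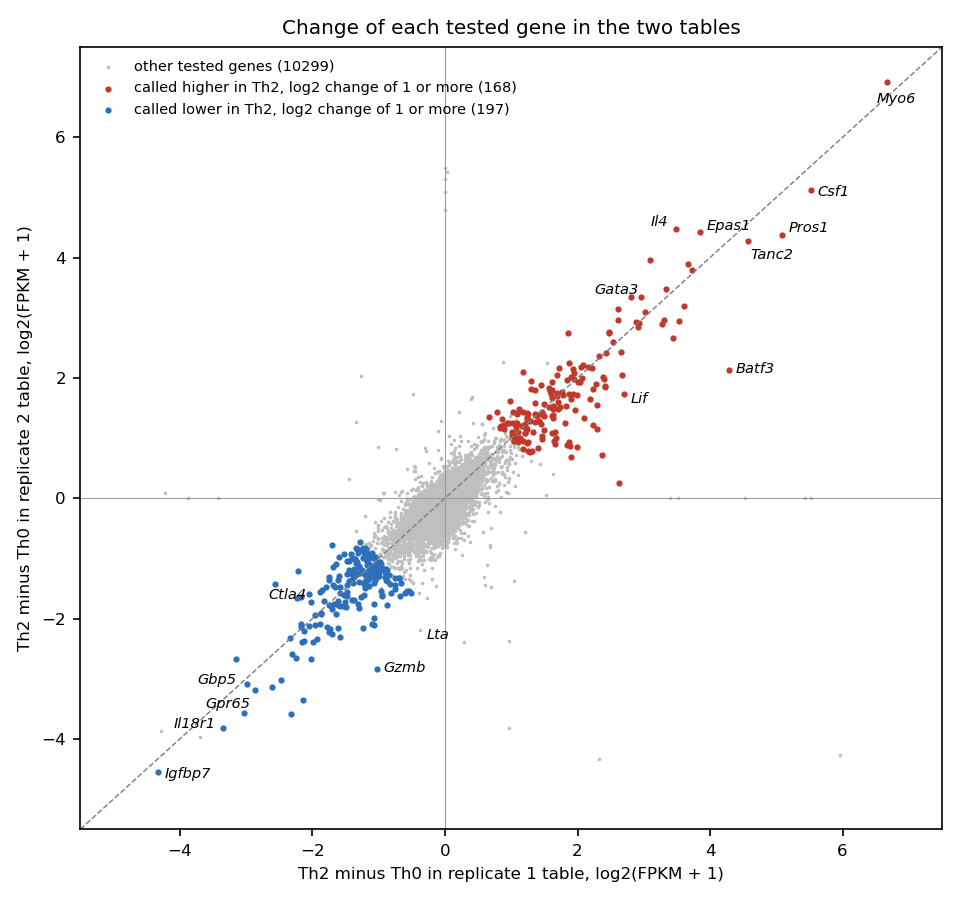
Each point is a tested gene; the x axis gives its Th2 minus Th0 difference of log2(FPKM + 1) in the replicate 1 table and the y axis the same in the replicate 2 table. Of the 168 genes called higher by 1 or more, 136 rose by 1 or more in both tables. Of the 197 called lower, 136 fell by 1 or more in both. These genes were chosen on their change over both tables. Over all tested genes the changes in the 2 tables correlated at r = 0.724. Myo6 is highest in both tables, and Batf3, Gzmb and Lta lie off the diagonal.

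Of 20 tested transcription factors of the Th2 programme 10 were called higher, led by Gata3. Gata3 encodes the factor that defines the lineage. It had 93.3 and 117 FPKM in the Th2 libraries, against 11.1 and 10.6 FPKM in the Th0 libraries. Both Th2 libraries lay far above both Th0 libraries, a log2 change of 3.15 ± 0.12 (SE), with a limma adjusted p of 3.1e-07. Nfil3, a basic leucine zipper repressor that IL-4 induces in lymphocytes, had 75.1 and 97.5 FPKM in the Th2 libraries, against 9.06 and 12.7 FPKM in the Th0 libraries. It changed by 2.88 ± 0.13 (SE), with a limma adjusted p of 7.5e-07. Irf4, needed for Th2 differentiation, had 276 and 321 FPKM in the Th2 libraries, against 84.6 and 98.6 FPKM in the Th0 libraries, and rose by 1.69 ± 0.10 (SE), with a limma adjusted p of 3.6e-06. The groups did not overlap for any of these 3 genes. Rbpj, the DNA-binding partner of Notch receptors, had 171 and 180.2 FPKM in the Th2 libraries, against 40.7 and 46.3 FPKM in the Th0 libraries and rose by 1.99 ± 0.15 (SE), with a limma adjusted p of 1.7e-05. Satb1, an organizer of chromatin at the Il4 locus, had 163 and 175 FPKM in the Th2 libraries, against 42.8 and 55.2 FPKM in the Th0 libraries, which is a change of 1.78 ± 0.12 (SE), with a limma adjusted p of 9.8e-06. Satb1 was not particular to this medium, since Th17_b cells held 181 and 190 FPKM. Smaller rises were called for Batf (0.83 ± 0.12), Nfatc2 (0.72 ± 0.08) and Ets1 (0.66 ± 0.09). Batf had 32.9 and 37.3 FPKM in Th2 cells and more, 130 and 144 FPKM, in Th17_23 cells. Maf, an activator of Il4, was near 1 FPKM in Th2 cells, at 0.964 and 1.06 FPKM in Th2 and 0.338 and 0.219 FPKM in Th0 cells, a rise of 0.65 ± 0.11. In IL27_plus_TGF_beta cells Maf was far higher, at 130 and 137 FPKM. Ikzf1, which encodes Ikaros, changed by -0.48 ± 0.08, written as log2 change ± SE. Stat6 itself had 51.3 and 50.8 FPKM in the Th2 libraries, against 53.7 and 54.6 FPKM in the Th0 libraries and was not called (log2 change -0.08 ± 0.07, limma adjusted p = 0.45). Of 22 listed factors 20 were tested, 10 were called higher and 1 lower, with a median log2 change of 0.49 against -0.07 over all tested genes. Of these, Maf passed the filter through Th2 cells alone. Gfi1, a zinc finger repressor also called higher, had 27.9 and 21.5 FPKM in the Th2 libraries, against 14.1 and 14.7 FPKM in the Th0 libraries; without any 1 of the 4 libraries its limma adjusted p was 0.081 to 0.19.

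**Figure D2:**
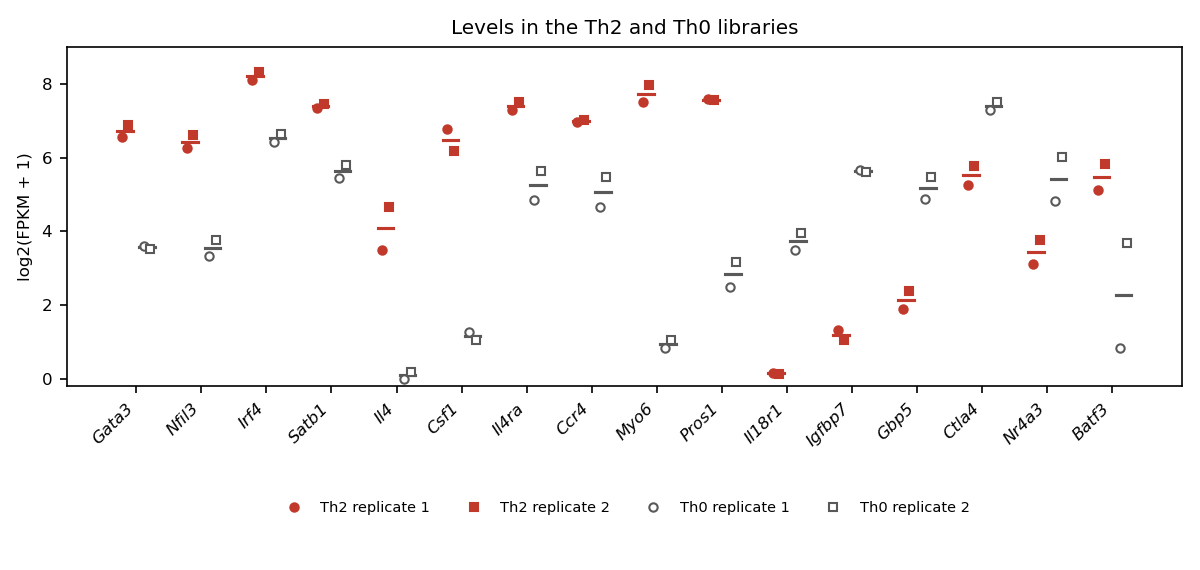
Levels as log2(FPKM + 1) of 16 genes, with Th2 libraries as filled red symbols to the left of Th0 libraries as open grey symbols; circles are replicate 1, squares replicate 2 and lines group means. For Gata3 the Th2 libraries hold 93.3 and 117 FPKM and the Th0 libraries 11.1 and 10.6 FPKM, and for Batf3 the Th0 libraries lie far apart.

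Of the cytokine genes Il4, Il5 and Il13, Il4 was tested and called. It had 10.2 and 24.5 FPKM in the Th2 libraries, against 0 and 0.147 FPKM in the Th0 libraries, a log2 change of 3.98 ± 0.26 (SE), with a limma adjusted p of 6.2e-06. Th1 cells, with 0 and 0.166 FPKM, held the highest library of the other 5 media. Il13, which acts through a receptor that shares the IL-4 receptor alpha chain, was under the filter, with 0.218 and 1.61 FPKM in the Th2 libraries, against 0.0238 and 0.0869 FPKM in the Th0 libraries. Il5, the growth factor of eosinophils, was at 0.0182 and 0.0232 FPKM in Th2 and 0.0358 and 0 FPKM in Th0 cells. Il10 had 0.507 and 1.21 FPKM in the Th2 libraries, against 0.0432 and 0 FPKM in the Th0 libraries, and Il9 was listed at 0 in all 4 libraries. At 3 days both Th2 libraries thus held over 10 FPKM of Il4 and under 2 FPKM of Il13. With a pseudocount of 0.1 in place of 1 the change of Il4 was 6.67, as the scale compresses low values. Of 16 listed cytokine genes 6 were tested, 3 were called higher (Il4, Csf1 and Lif) and 2 lower (Tnfsf11 and Csf2), with a median log2 change of 1.63. The other 10 were under the filter. Il4 and Il24 passed it through Th2 cells alone and Csf2 through Th0 cells alone, so the median partly follows from the filter.

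Csf1 and Lif, cytokines that act on other cell types, rose as well. Csf1, the growth factor of macrophages, had 109 and 71.1 FPKM in the Th2 libraries, against 1.41 and 1.06 FPKM in the Th0 libraries. It rose by 5.32 ± 0.27 (SE), with a limma adjusted p of 1.6e-06. Its level in Th2 cells was well above that of the next medium, Th17_b, at 14.3 and 22.1 FPKM. Lif, a ligand of the gp130 family, had 29.8 and 46.5 FPKM in the Th2 libraries, against 3.72 and 13.2 FPKM in the Th0 libraries and rose by 2.22 ± 0.30 (SE), with a limma adjusted p of 6.9e-04; Th1 cells held a similar level, 38.3 and 45.4 FPKM. Csf2, which encodes GM-CSF, was low, with 0.088 and 0.112 FPKM in the Th2 libraries, against 0.317 and 2.53 FPKM in the Th0 libraries. Its call (limma adjusted p = 0.044) was lost without Th2 replicate 1 (0.056) and without Th2 replicate 2 (0.29), its change was -1.55 without Th0 replicate 1, and it was under the filter without Th0 replicate 2. Tnfsf11, which encodes RANKL, had 6.38 and 8.34 FPKM in the Th2 libraries, against 11 and 18.2 FPKM in the Th0 libraries; its change of -0.87 ± 0.18 was not called without Th2 replicate 2 (limma adjusted p = 0.064) or Th0 replicate 2 (0.077).

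The Il4 signal lay mostly on 1 of 2 annotated transcripts. The transcript NR_027491, which RefSeq lists as non-coding, had 9.17 and 19.5 FPKM in the Th2 libraries, against 0 and 0.147 FPKM in the Th0 libraries. The coding transcript NM_021283 had 1.06 and 5.05 FPKM in the Th2 libraries and was listed at 0 in both Th0 libraries. The first therefore made up 89.6% and 79.4% of the sum in the Th2 libraries. The annotations differ on it, since GENCODE lists the matching transcript with the same start as protein-coding. The split of reads between transcripts of 1 gene was estimated before deposit and cannot be checked from FPKM. In RefSeq on GRCm38.p6 their starts are 1327 bases apart on the minus strand of chromosome 11. The windows from 250 bases before to 50 bases after each start are shown because these transcripts carry the IL-4 call; capitals mark the motif TTCNNNNGAA, the spacing that STAT6 prefers.
Il4 coding start, chr11:53618616-53618915, minus strand: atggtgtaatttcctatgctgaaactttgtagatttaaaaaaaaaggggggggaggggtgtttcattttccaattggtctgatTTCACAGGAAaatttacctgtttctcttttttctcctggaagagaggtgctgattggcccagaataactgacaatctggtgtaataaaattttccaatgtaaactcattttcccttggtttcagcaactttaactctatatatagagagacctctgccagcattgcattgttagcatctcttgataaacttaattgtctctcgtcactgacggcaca
Il4 inner start, chr11:53617289-53617588, minus strand: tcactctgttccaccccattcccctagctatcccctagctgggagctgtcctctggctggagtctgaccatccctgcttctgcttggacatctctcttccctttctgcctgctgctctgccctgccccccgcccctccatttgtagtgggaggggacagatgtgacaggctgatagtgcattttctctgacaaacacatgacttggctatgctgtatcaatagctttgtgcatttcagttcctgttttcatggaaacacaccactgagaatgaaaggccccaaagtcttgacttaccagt
The window of the coding start holds TTCACAGGAA, which begins 167 bases before the start, and the inner window holds no such match. The motif reads the same way on both strands. It occurs in 6.95% of 32851 RefSeq windows, in 5.38% of the windows of tested genes, in 8.60% of those of genes called higher by 1 or more and in 9.52% of those of genes called lower by 1 or more. A match is a description of the letters in this window.

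**Figure D3:**
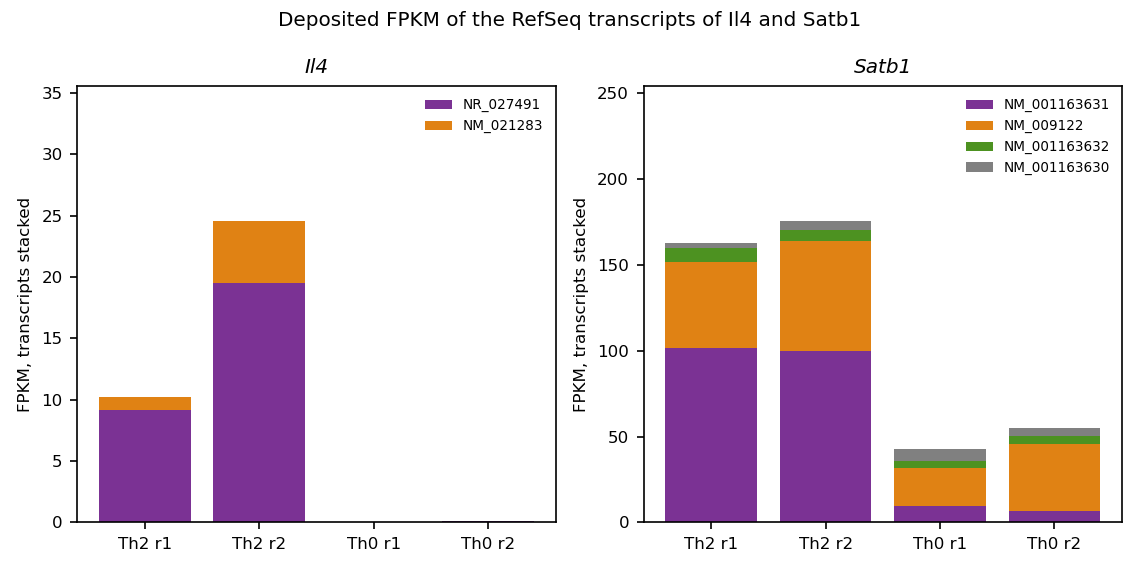
Deposited FPKM of each RefSeq transcript of Il4 (left) and Satb1 (right), stacked, for Th2 replicates 1 and 2 and then Th0 replicates 1 and 2. NR_027491 makes up 89.6% and 79.4% of Il4 in Th2 cells, and NM_001163631 makes up 62.6% and 57.1% of Satb1 in Th2 cells against 22.0% and 11.6% in Th0 cells.

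Genes beside Il4 on chromosome 11 changed unequally. In the RefSeq order Kif3a, a kinesin motor subunit, lies next to Il4, and had 3.32 and 5.02 FPKM in the Th2 libraries, against 1.58 and 2.13 FPKM in the Th0 libraries, a rise of 0.84 ± 0.14 (SE), with a limma adjusted p of 0.0025. Septin8, the next gene outward, had 8.6 and 12 FPKM in the Th2 libraries, against 2.74 and 3.36 FPKM in the Th0 libraries and rose by 1.47 ± 0.09 (SE), with a limma adjusted p of 4.8e-06. On the other side, Rad50, a DNA repair gene that holds the locus control region of the Th2 cytokines, had 22.6 and 22.7 FPKM in the Th2 libraries, against 19.5 and 19.3 FPKM in the Th0 libraries and was not called (limma adjusted p = 0.067). Its log2 change of 0.21 was called after quantile normalization (0.27) and scaling to 1 median (0.28). Pdlim4, 8 genes away from Il4 and an actin-binding LIM protein gene, had 10.4 and 14.1 FPKM in the Th2 libraries, against 0.972 and 1.51 FPKM in the Th0 libraries, which is a rise of 2.56 ± 0.19 (SE), with a limma adjusted p of 1.8e-05. Irf1, between Rad50 and Pdlim4, had 14.9 and 14.9 FPKM in the Th2 libraries, against 17.6 and 14.9 FPKM in the Th0 libraries and was not called. Of the 10 protein-coding genes on each side, 11 of 20 in all were tested; Septin8, Kif3a, Pdlim4 and Aff4 were called higher and Csf2 lower. Aff4 changed by 0.31 ± 0.09, and its call was lost without Th2 replicate 2 and without either Th0 library, at limma adjusted p of 0.11 to 0.30.

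Of 11 tested receptors for type 2 signals 6 were called higher. Il4ra, the ligand-binding chain of the IL-4 receptor, had 155 and 179.7 FPKM in the Th2 libraries, against 28.1 and 48.5 FPKM in the Th0 libraries, a rise of 2.14 ± 0.18 (SE), with a limma adjusted p of 3.2e-05. Il17rb, a receptor chain for IL-25, had 2.53 and 2.44 FPKM in the Th2 libraries, against 0.0256 and 0.0468 FPKM in the Th0 libraries, and rose by 1.75 ± 0.13 (SE), with a limma adjusted p of 1.3e-05. With a pseudocount of 0.1 its change was 4.25. The chemokine receptors of Th2 cells followed. Ccr4 had 124 and 129 FPKM in the Th2 libraries, against 24.5 and 43.2 FPKM in the Th0 libraries and rose by 1.93 ± 0.17 (SE), with a limma adjusted p of 4.7e-05, and Ccr8 had 40.5 and 50.4 FPKM in the Th2 libraries, against 9.79 and 12.1 FPKM in the Th0 libraries and rose by 1.96 ± 0.20 (SE), with a limma adjusted p of 1.3e-04. Ccr8 was not particular to this medium, since iTreg cells held 213 and 174 FPKM. Il7r and Il21r rose by 1.02 ± 0.19 and 0.67 ± 0.11; for Il7r the limma adjusted p was 0.051 without Th0 replicate 1. The receptor of IL-33, Il1rl1, was at 0.00994 and 0.0253 FPKM in Th2 and 0.059 and 0.0297 FPKM in Th0 cells, and Ptgdr2, the prostaglandin D2 receptor of Th2 cells, at 0.0992 and 0.0253 FPKM in Th2 and 0.0778 and 0.0474 FPKM in Th0 cells. Crlf2, a receptor chain for TSLP, had 34.4 and 33.2 FPKM in the Th2 libraries, against 31.8 and 32.4 FPKM in the Th0 libraries and was not called. Icos, a costimulatory receptor, had 48.5 and 47.9 FPKM in the Th2 libraries, against 65.1 and 108 FPKM in the Th0 libraries and changed by -0.79 ± 0.16 (SE), with a limma adjusted p of 0.0071; this was not called without Th2 replicate 2 (0.070), and the change was -0.45 without Th0 replicate 2. Of 16 listed receptors 11 were tested, 6 were higher and 3 lower, with a median log2 change of 0.67; without Th2 replicate 2 none was called lower.

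Known targets of IL-4 and STAT6 that were called were all higher. Of 21 listed genes 13 were tested, 10 were called higher and none lower, with a median log2 change of 1.31. The other 8 were under the filter. Maf and Il24 passed it through Th2 cells alone, so the counts and the median partly follow from the filter. Like the other lists, this one was chosen with earlier results of these data known, so its counts are descriptions. Besides Gata3, Nfil3, Il4ra, Ccr4, Ccr8, Batf, Maf and Gfi1, the higher genes were Socs1 and Itgb3. Socs1, a feedback inhibitor of cytokine receptors, had 115 and 132 FPKM in the Th2 libraries, against 23.5 and 56.6 FPKM in the Th0 libraries. It rose by 1.72 ± 0.23 (SE), with a limma adjusted p of 7.8e-04, although the Th0 libraries differed from each other. Itgb3, the integrin beta 3 chain, had 29.5 and 30.3 FPKM in the Th2 libraries, against 13 and 10.2 FPKM in the Th0 libraries and rose by 1.31 ± 0.17 (SE), with a limma adjusted p of 5.4e-04. Xbp1, Cish and Il24 were not called. The change of Xbp1 was 0.33 and ranged from 0.0084 to 0.65 in the fits without 1 library. Il24, a cytokine of the IL-10 family, had 0.32 and 2.62 FPKM in the Th2 libraries, against 0 and 0.127 FPKM in the Th0 libraries. It passed with a pseudocount of 0.1 (limma adjusted p = 0.028).

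The largest rise of any called gene was that of Myo6, an unconventional myosin that moves towards the minus end of actin filaments. Myo6 had 180.1 and 251 FPKM in the Th2 libraries, against 0.779 and 1.09 FPKM in the Th0 libraries, a log2 change of 6.79 ± 0.13 (SE), with a limma adjusted p of 5.6e-09. Of the other 5 media iTreg cells held the highest library, with 1.44 and 2.22 FPKM. Pros1, which encodes protein S, an anticoagulant and a ligand of TAM receptors, had 191 and 187 FPKM in the Th2 libraries, against 4.67 and 8 FPKM in the Th0 libraries, and rose by 4.73 ± 0.16 (SE), with a limma adjusted p of 1.3e-07. Tanc2, a scaffold protein gene known from synapses, had 37.6 and 31.8 FPKM in the Th2 libraries, against 0.63 and 0.701 FPKM in the Th0 libraries and rose by 4.42 ± 0.11 (SE), with a limma adjusted p of 2.9e-08. These 3 genes were thus close to or under 8 FPKM in Th0 cells and between 31.8 and 251 FPKM in Th2 cells. Epas1, which encodes the hypoxia-inducible factor HIF-2α, had 23.6 and 38.5 FPKM in the Th2 libraries, against 0.714 and 0.831 FPKM in the Th0 libraries and rose by 4.14 ± 0.18 (SE), with a limma adjusted p of 6.0e-07. F2rl2, the protease-activated receptor 3 gene, had 13.2 and 16.3 FPKM in the Th2 libraries, against 0.116 and 0.166 FPKM in the Th0 libraries, a rise of 3.78 ± 0.12 (SE), with a limma adjusted p of 1.0e-07. Gask1a, a Golgi kinase gene, had 13.2 and 16.8 FPKM in the Th2 libraries, against 0.0676 and 0.283 FPKM in the Th0 libraries and rose by 3.76 ± 0.11 (SE), with a limma adjusted p of 7.3e-08. For F2rl2 and Gask1a every Th0 library was under 0.3 FPKM. Marchf10, a ubiquitin ligase gene, had 9.08 and 10.2 FPKM in the Th2 libraries and was listed at 0 in both Th0 libraries. Adamtsl3, a secreted matrix protein gene, had 7.53 and 14.6 FPKM in the Th2 libraries and was likewise listed at 0 in both Th0 libraries. P2ry1, a receptor for ADP, had 15.4 and 11 FPKM in the Th2 libraries, against 0.419 and 0.558 FPKM in the Th0 libraries and rose by 3.24 ± 0.15 (SE), with a limma adjusted p of 7.5e-07. Crabp2, a carrier of retinoic acid, had 31.5 and 20.8 FPKM in the Th2 libraries, against 2.3 and 1.8 FPKM in the Th0 libraries and rose by 3.13 ± 0.27 (SE), with a limma adjusted p of 3.7e-05, and Th1 cells held a similar level, 32.3 and 18.9 FPKM. H2-DMb2, a chain of the class II peptide exchanger, had 16.6 and 19.3 FPKM in the Th2 libraries, against 0.452 and 1.23 FPKM in the Th0 libraries and rose by 3.39 ± 0.23 (SE), with a limma adjusted p of 9.8e-06; its near copy H2-DMb1 makes the split of reads between them uncertain. Batf3, an AP-1 factor gene, had 34.1 and 55.5 FPKM in the Th2 libraries, against 0.802 and 12 FPKM in the Th0 libraries. It rose by 3.20 ± 0.55 (SE), with a limma adjusted p of 0.0031, but its change was 4.28 in the replicate 1 table and 2.12 in the replicate 2 table, and 2.00 without Th0 replicate 1.

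The window of the Pros1 start is shown beside those of Il4. Among the 15 largest rises, 13 of which have RefSeq windows, these were the genes with a TTCNNNNGAA match. The motif occurred in 2 of 15 windows (13.3%) of these rises. It occurred in 3 of 18 windows (16.7%) of the 15 largest falls.
Pros1 start, chr16:62854057-62854356, plus strand: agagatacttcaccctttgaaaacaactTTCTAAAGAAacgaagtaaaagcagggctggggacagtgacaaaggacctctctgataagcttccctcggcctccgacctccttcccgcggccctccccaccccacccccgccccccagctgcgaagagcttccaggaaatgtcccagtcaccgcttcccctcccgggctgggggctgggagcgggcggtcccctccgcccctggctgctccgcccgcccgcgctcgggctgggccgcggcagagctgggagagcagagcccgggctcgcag
The match in Pros1, TTCTAAAGAA, begins 222 bases before the start.

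The largest of the falls named here was that of Igfbp7. Igfbp7, a secreted protein that binds insulin-like growth factors, had 1.51 and 1.09 FPKM in the Th2 libraries, against 49.7 and 48.1 FPKM in the Th0 libraries, a log2 change of -4.44 ± 0.18 (SE), with a limma adjusted p of 4.8e-07. Il18r1, the ligand-binding chain of the IL-18 receptor, had 0.112 and 0.108 FPKM in the Th2 libraries, against 10.3 and 14.6 FPKM in the Th0 libraries, a change of -3.58 ± 0.20 (SE), with a limma adjusted p of 2.5e-06. Pdzk1ip1, a small membrane protein gene, had 0.74 and 1.05 FPKM in the Th2 libraries, against 13.3 and 23.3 FPKM in the Th0 libraries and changed by -3.30 ± 0.19 (SE), with a limma adjusted p of 2.7e-06. For these 3 genes no Th2 library exceeded 1.51 FPKM. Gpr65, a receptor that senses protons, had 0.106 and 0.0169 FPKM in the Th2 libraries, against 7.05 and 8.24 FPKM in the Th0 libraries, a change of -3.02 ± 0.28 (SE), with a limma adjusted p of 6.2e-05. Endod1, a nuclease domain gene, had 1.44 and 1.37 FPKM in the Th2 libraries, against 20.7 and 14.1 FPKM in the Th0 libraries and changed by -2.91 ± 0.14 (SE), with a limma adjusted p of 1.0e-06. Tubb2b, a beta tubulin gene, had 1.86 and 1.37 FPKM in the Th2 libraries, against 16.4 and 19.9 FPKM in the Th0 libraries and changed by -2.87 ± 0.18 (SE), with a limma adjusted p of 4.3e-06. The groups did not overlap for any of these 3. Further large falls were those of Pla2g4f, a phospholipase gene (-2.75 ± 0.17), Ms4a4c (-2.45 ± 0.19), Slamf9 (-2.45 ± 0.24), Coro2a, a coronin gene (-2.25 ± 0.31), and Ifi203 and Mndal of the interferon-inducible Ifi200 family (-2.28 ± 0.14 and -2.19 ± 0.13), each as log2 change ± SE. Reads of the Ifi200, Gbp, Tgtp, Ms4a4 and Tubb2 families may be shared between near-identical members, so their single levels are uncertain.

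Most tested genes of the Th1 programme were called lower in Th2 cells. Among them Il18r1, Il18rap and Nkg7 passed the filter through Th0 cells alone. Of 26 listed genes 19 were tested, 12 were called lower and 1 higher, with a median log2 change of -0.96; the lower count was 8 without Th2 replicate 2 or Th0 replicate 2 and 14 without Th0 replicate 1. Il18rap, the accessory chain of the IL-18 receptor, had 0.0425 and 0.0271 FPKM in the Th2 libraries, against 3.05 and 2.96 FPKM in the Th0 libraries, a change of -1.95 ± 0.16 (SE), with a limma adjusted p of 3.1e-05. Nkg7, a cytotoxic granule protein gene, had 0.28 and 0.204 FPKM in the Th2 libraries, against 5.5 and 5.03 FPKM in the Th0 libraries and changed by -2.33 ± 0.20 (SE), with a limma adjusted p of 3.4e-05. The chemokine genes Ccl3 and Ccl4 fell with it. Ccl3 had 0.0833 and 0.0531 FPKM in the Th2 libraries, against 3.39 and 5.72 FPKM in the Th0 libraries and changed by -2.35 ± 0.30 (SE), with a limma adjusted p of 5.9e-04, and Ccl4 had 1.99 and 2.6 FPKM in the Th2 libraries, against 7.95 and 16.9 FPKM in the Th0 libraries and changed by -1.95 ± 0.29 (SE), with a limma adjusted p of 0.0013. Il12rb2, the inducible chain of the IL-12 receptor, had 0.882 and 1.21 FPKM in the Th2 libraries, against 2.16 and 5.29 FPKM in the Th0 libraries; its change of -1.13 ± 0.23 (SE), with a limma adjusted p of 0.0083, was not called without Th2 replicate 2 (0.071) or Th0 replicate 2 (0.080). Gzmb, which encodes granzyme B, had 2.92 and 0.919 FPKM in the Th2 libraries, against 6.99 and 12.7 FPKM in the Th0 libraries; its change of -1.93 ± 0.42 was -1.23 and not called without Th2 replicate 2 (limma adjusted p = 0.10), nor without Th0 replicate 2 (0.11). Il12rb1, the shared chain of the IL-12 and IL-23 receptors, went the other way, with 35.8 and 41.1 FPKM in the Th2 libraries, against 14.7 and 14.8 FPKM in the Th0 libraries, a rise of 1.32 ± 0.11 (SE), with a limma adjusted p of 3.9e-05. The genes that define Th1 cells were near 0 in both media: Tbx21 had 0.0619 and 0.0131 FPKM in Th2 and 0.243 and 0.604 FPKM in Th0 cells, and Ifng had 0.0242 and 0.0309 FPKM in Th2 and 0.0713 and 0 FPKM in Th0 cells. Stat4 and Runx3 were not called at log2 changes of -0.37 ± 0.15 and 0.35 ± 0.13, but Runx3 was called higher after quantile normalization (0.42) and scaling to 1 median (0.41).

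Interferon-induced genes were lower in part. Of 48 listed genes 35 were tested, 16 were called lower and 2 higher, with a median log2 change of -0.33. Without Th0 replicate 2 the lower count was 10. The guanylate-binding proteins, GTPases of cell-intrinsic defence, led the list. Gbp5 had 2.72 and 4.23 FPKM in the Th2 libraries, against 28.6 and 43.6 FPKM in the Th0 libraries, a change of -3.04 ± 0.17 (SE), with a limma adjusted p of 2.6e-06. Gbp2 had 14.1 and 19.1 FPKM in the Th2 libraries, against 70.3 and 62.6 FPKM in the Th0 libraries and changed by -1.95 ± 0.13 (SE), with a limma adjusted p of 6.2e-06. Gbp3 and Gbp7 changed by -1.72 ± 0.07 and -1.89 ± 0.07, and every Th2 library lay under every Th0 library for each of these 4 genes. Irf8, a factor gene that IFN-γ induces, had 1.64 and 3.37 FPKM in the Th2 libraries, against 6.23 and 10.3 FPKM in the Th0 libraries and changed by -1.41 ± 0.24 (SE), with a limma adjusted p of 0.0034. Psmb8, an immunoproteasome subunit gene, had 206 and 193 FPKM in the Th2 libraries, against 220.4 and 259 FPKM in the Th0 libraries and was not called. Both media held antibodies to IFN-γ. In Th1 cells Gbp2 had 282 and 294 FPKM and Irf8 96.9 and 71.6 FPKM.

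**Figure D4:**
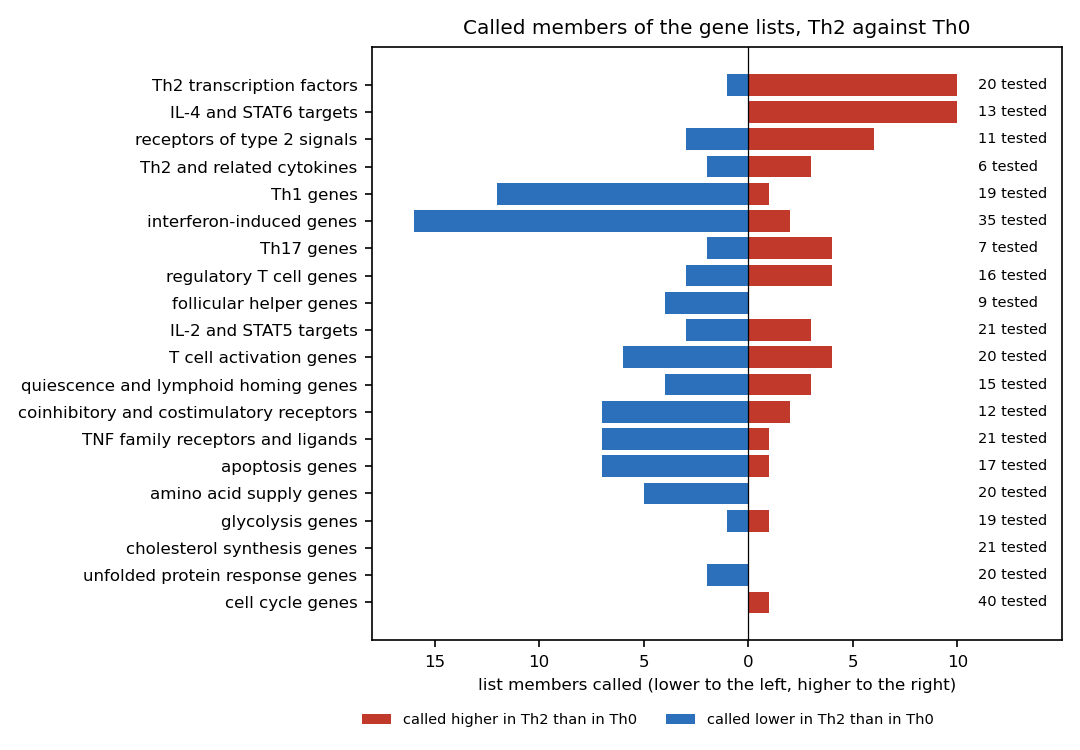
Number of members of 20 gene lists called higher (red, to the right) or lower (blue, to the left) in Th2 than in Th0 cells, with the number tested beside each bar. The STAT6 list has 10 members higher and none lower of 13 tested. The Th1 list has 1 higher and 12 lower of 19, and the cell cycle list 1 higher and none lower of 40. The lists were chosen with earlier results of these data known.

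The defining factors of other helper lineages were low. Foxp3, the factor of regulatory T cells, had 0.612 and 0.478 FPKM in the Th2 libraries, against 0.742 and 1.83 FPKM in the Th0 libraries and was not called; without Th0 replicate 1 its change of -0.52 became -0.89 (limma adjusted p = 0.0016). Bcl6, the factor of follicular helper cells, had 1.39 and 1.06 FPKM in the Th2 libraries, against 2.77 and 1.14 FPKM in the Th0 libraries and was not called. Pou2af1, a coactivator gene of the follicular list, had 5.3 and 3.8 FPKM in the Th2 libraries, against 27.5 and 14 FPKM in the Th0 libraries and changed by -1.91 ± 0.29 (SE), with a limma adjusted p of 0.0015, and Slamf6 had 17.9 and 25.3 FPKM in the Th2 libraries, against 42.5 and 46.9 FPKM in the Th0 libraries and changed by -1.03 ± 0.20 (SE), with a limma adjusted p of 0.006. Of the 9 tested follicular genes 4 were lower and none higher, where 13.1% of all tested genes were lower and 6.02% higher, so that none higher of 9 says nothing about the list. The Th17 list had 4 higher members of 7 tested, which were Batf, Irf4, Maf and Ikzf3; the first 3 also stand in the Th2 list. Ikzf3, which encodes Aiolos, had 32.7 and 31.4 FPKM in the Th2 libraries, against 8.19 and 8.69 FPKM in the Th0 libraries and rose by 1.81 ± 0.16 (SE), with a limma adjusted p of 4.1e-05, and IL27_plus_TGF_beta cells held the most, 148 and 129 FPKM.

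The replicates disagreed on several targets of IL-2 and STAT5, in Th0 cells and in some other media. Il2ra, the alpha chain of the IL-2 receptor, had 198 and 294 FPKM in the Th2 libraries, against 126 and 343 FPKM in the Th0 libraries. Cish, a feedback inhibitor that STAT5 induces, had 189 and 229 FPKM in the Th2 libraries, against 60.5 and 172 FPKM in the Th0 libraries, and Socs2 had 24.8 and 43.4 FPKM in the Th2 libraries, against 22.3 and 61.4 FPKM in the Th0 libraries. The Th2 values of Il2ra and Socs2 overlapped those of Th0, and none of the 3 genes was called. The replicate gap was not particular to Th0 cells. Cish was higher in replicate 2 of every medium, with 19.4 and 86.8 FPKM in iTreg cells. Il2ra and Socs2 were also higher in replicate 2 of iTreg cells, but not of IL27_plus_TGF_beta cells. Il2 itself had 6.04 and 2.56 FPKM in the Th2 libraries, against 0.906 and 0.946 FPKM in the Th0 libraries; its rise of 1.38 ± 0.38 (limma adjusted p = 0.032) was lost without Th2 replicate 1, where the change was 0.79, and without either Th0 library (0.13 and 0.14). Of 22 listed genes 21 were tested, 3 were called higher (Socs1, Lif and Il4ra) and 3 lower (Pim2, Il12rb2 and Gzmb), with a median log2 change of 0.25; the count of lower calls is near the 13.1% of all tested genes. Leaving out Th0 replicate 1 gave 3 higher and 4 lower, leaving out Th0 replicate 2 gave 5 higher and none lower, and none was lower without Th2 replicate 2. Lta, which encodes lymphotoxin alpha, had 9.68 and 33.7 FPKM in the Th2 libraries, against 12.9 and 158 FPKM in the Th0 libraries. Its change of -1.28 became -2.63 when Th0 replicate 1 was left out and 0.06 when Th0 replicate 2 was. The Th2 medium has no named antibody to IL-2, and Th0 cells had antibodies to it; how far IL-2 acted in either medium was not tested.

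Genes induced by T cell receptor signals did not move together. Nr4a3, an orphan nuclear receptor gene, had 7.6 and 12.7 FPKM in the Th2 libraries, against 27.1 and 64.4 FPKM in the Th0 libraries and changed by -1.98 ± 0.22 (SE), with a limma adjusted p of 2.0e-04. Rel, which encodes the NF-κB subunit c-Rel, had 13.8 and 15.4 FPKM in the Th2 libraries, against 29.3 and 37.9 FPKM in the Th0 libraries and changed by -1.14 ± 0.11 (SE), with a limma adjusted p of 8.4e-05. Nfkb1 changed by -0.48 ± 0.07. Nr4a1 had 56.6 and 103 FPKM in the Th2 libraries, against 92 and 232 FPKM in the Th0 libraries; the groups overlapped, and its change of -0.93 ± 0.16 was called within tables and not without the table term (limma adjusted p = 0.34). Cd69, an early activation marker, had 13 and 20.3 FPKM in the Th2 libraries, against 20.7 and 51.4 FPKM in the Th0 libraries. Its change of -0.97 ± 0.23 was -0.52 without Th0 replicate 2 and lost its call there and without either Th2 library. Egr2 went up, with 25.8 and 36.2 FPKM in the Th2 libraries, against 8.91 and 24.2 FPKM in the Th0 libraries, but its call (limma adjusted p = 0.027) was lost without Th0 replicate 1 (0.18) and without either Th2 library (0.091 and 0.13). Of 20 listed activation genes 4 were called higher and 6 lower; without Th0 replicate 1 or Th2 replicate 1 there were 2 higher.

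Surface receptors for inhibition and costimulation split. Ctla4, the inhibitory receptor for CD80 and CD86, had 37.5 and 53.9 FPKM in the Th2 libraries, against 155 and 180.2 FPKM in the Th0 libraries and changed by -1.87 ± 0.14 (SE), with a limma adjusted p of 1.5e-05. Pdcd1, which encodes PD-1, had 11.5 and 12.3 FPKM in the Th2 libraries, against 27.5 and 25.4 FPKM in the Th0 libraries and changed by -1.09 ± 0.09 (SE), with a limma adjusted p of 2.2e-05. Cd226, an activating receptor, had 3.24 and 2.93 FPKM in the Th2 libraries, against 13.2 and 16.8 FPKM in the Th0 libraries and changed by -1.96 ± 0.10 (SE), with a limma adjusted p of 1.2e-06. In contrast Lag3, an inhibitory receptor for class II molecules, had 156 and 157 FPKM in the Th2 libraries, against 50.3 and 48.8 FPKM in the Th0 libraries and rose by 1.64 ± 0.20 (SE), with a limma adjusted p of 3.8e-04. Tigit, which competes with CD226 for ligands, had 31.8 and 29.9 FPKM in the Th2 libraries, against 15.5 and 9.12 FPKM in the Th0 libraries and rose by 1.30 ± 0.22 (SE), with a limma adjusted p of 0.0026. Of 12 tested receptors 2 were higher and 7 lower, and 4 were lower without Th2 replicate 2. The nucleotidase genes also moved apart: Entpd1, which encodes CD39, had 2.99 and 4.33 FPKM in the Th2 libraries, against 0.208 and 0.188 FPKM in the Th0 libraries and rose by 1.94 ± 0.17 (SE), with a limma adjusted p of 4.4e-05, while Nt5e, which encodes CD73, had 0.616 and 0.411 FPKM in the Th2 libraries, against 5.68 and 5.16 FPKM in the Th0 libraries and changed by -2.09 ± 0.16 (SE), with a limma adjusted p of 2.0e-05.

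Trafficking and survival genes changed as well. S1pr1, the receptor for egress from lymph nodes, had 4.52 and 5.77 FPKM in the Th2 libraries, against 13 and 15 FPKM in the Th0 libraries and changed by -1.29 ± 0.13 (SE), with a limma adjusted p of 1.5e-04. Ccr7, the receptor for entry into lymph nodes, had 118 and 129 FPKM in the Th2 libraries, against 228 and 185 FPKM in the Th0 libraries and changed by -0.73 ± 0.11 (SE), with a limma adjusted p of 0.0018. Gpr183, a receptor for oxysterols that guides cells within lymphoid tissue, had 41.9 and 34.3 FPKM in the Th2 libraries, against 11.6 and 9.36 FPKM in the Th0 libraries and rose by 1.77 ± 0.16 (SE), with a limma adjusted p of 6.2e-05. In the TNF family, Fas had 6.55 and 5.41 FPKM in the Th2 libraries, against 14.8 and 20.7 FPKM in the Th0 libraries and changed by -1.41 ± 0.14 (SE), with a limma adjusted p of 1.2e-04, and Tnfsf4, which encodes OX40 ligand, had 2.61 and 1.3 FPKM in the Th2 libraries, against 6.72 and 8.75 FPKM in the Th0 libraries and changed by -1.59 ± 0.25 (SE), with a limma adjusted p of 0.002. Tnfrsf8, which encodes CD30, had 1.89 and 4.01 FPKM in the Th2 libraries, against 0.278 and 0.169 FPKM in the Th0 libraries and rose by 1.64 ± 0.27 (SE), with a limma adjusted p of 0.0026. Of 17 apoptosis genes, all tested, 7 were lower and 1 higher. The lower ones include both inducers of death, such as Bbc3 (-0.69 ± 0.10) and Bmf (-0.60 ± 0.10), and the protective Bcl2a1a (-1.26 ± 0.17), a gene with near-identical copies.

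Few growth and metabolism genes were called between these media. Of 40 cell cycle genes tested, 1 was called, Cdk6, which drives entry into S phase, with 22.1 and 29.3 FPKM in the Th2 libraries, against 11.1 and 14 FPKM in the Th0 libraries. Its call was lost without Th2 replicate 2 (limma adjusted p = 0.14) and without Th0 replicate 1 (0.11). None of 21 tested cholesterol synthesis genes was called by limma. Of 19 glycolysis genes 1 was higher and 1 lower, of 15 tested HIF targets 1 was higher (Mxi1, 0.76 ± 0.10) and 1 lower, and of 20 genes of the unfolded protein response 2 were lower. In the fits without 1 library there was no lower call of glycolysis genes and 0 or 1 of the unfolded protein response; of HIF targets 2 were lower without Th2 replicate 2 and none in the other 3 fits. All of these shares lie under the 19.1% of all tested genes. Among 20 amino acid supply genes 5 were lower, and between 0 and 2 were lower in the fits without 1 library.

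Some changed genes were among the most abundant of the cells. Irf4, Myo6, Pros1, Rbpj, Satb1, Il4ra and Lag3 are described above. Akr1c18, a 20-alpha hydroxysteroid dehydrogenase gene, had 263 and 139 FPKM in the Th2 libraries, against 56.8 and 43.5 FPKM in the Th0 libraries and rose by 1.92 ± 0.26 (SE), with a limma adjusted p of 7.2e-04. Id2, an inhibitor of E proteins, had 145 and 175 FPKM in the Th2 libraries, against 38.8 and 36 FPKM in the Th0 libraries and rose by 2.06 ± 0.21 (SE), with a limma adjusted p of 1.1e-04, while its relative Id3 had 25.2 and 24.4 FPKM in the Th2 libraries, against 78.2 and 49.1 FPKM in the Th0 libraries and changed by -1.29 ± 0.21 (SE), with a limma adjusted p of 0.0025. The pair thus moved in opposite directions. Cst7, which encodes cystatin F, had 139 and 143 FPKM in the Th2 libraries, against 46 and 39.6 FPKM in the Th0 libraries and rose by 1.70 ± 0.14 (SE), with a limma adjusted p of 2.6e-05. Of abundant genes that fell, Ms4a4b, a membrane protein gene of T cells, had 74.2 and 77.6 FPKM in the Th2 libraries, against 339 and 332 FPKM in the Th0 libraries and changed by -2.13 ± 0.17 (SE), with a limma adjusted p of 2.2e-05. Nrn1, which encodes neuritin, had 67.5 and 62.7 FPKM in the Th2 libraries, against 228 and 218 FPKM in the Th0 libraries and changed by -1.76 ± 0.22 (SE), with a limma adjusted p of 4.2e-04. A pair of polyamine enzymes is also on this side. Odc1, which makes putrescine, had 72.7 and 58.7 FPKM in the Th2 libraries, against 134 and 135 FPKM in the Th0 libraries and changed by -1.03 ± 0.14 (SE), with a limma adjusted p of 7.0e-04, and Sat1, which acetylates spermidine and spermine, had 32.7 and 34.4 FPKM in the Th2 libraries, against 84.6 and 84 FPKM in the Th0 libraries and changed by -1.31 ± 0.10 (SE), with a limma adjusted p of 2.0e-05.

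Markers of other cell types moved in a few cases. Adgre1, the F4/80 gene of macrophages, had 1.55 and 2.48 FPKM in the Th2 libraries and was listed at 0 in both Th0 libraries. The 14 myeloid markers summed to 37.5 and 42.1 FPKM in the Th2 libraries, against 67.3 and 70.7 FPKM in the Th0 libraries, most of it Ctss, a lysosomal protease gene that had 32.5 and 36 FPKM in the Th2 libraries, against 63 and 66.9 FPKM in the Th0 libraries. Csf1r, the receptor of Csf1, was at most 0.0252 FPKM in the 4 libraries, and Tyrobp at most 0.204 FPKM. Of the dendritic cell list Batf3 was the 1 tested gene, of the natural killer and innate lymphoid list Id2, which T cells also express. The mast cell and basophil markers summed to 3.55 and 2.47 FPKM in the Th2 libraries, against 1.55 and 1.78 FPKM in the Th0 libraries, most of it Hdc, the histamine-forming enzyme gene, whose call was lost in each fit without 1 library; Cpa3, Mcpt8 and Fcer1a were at most 0.0464 FPKM. The part of such cells in the results was not tested. In such bulk samples fewer cells of a type and less RNA per cell cannot be told apart.

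Against all 6 other media, 72 of the tested genes (0.675%) were higher and 23 (0.216%) lower in Th2 cells by 1 or more with a call in each. These comparisons share the Th2 libraries. The largest margins above were those of Myo6, Pros1, Tanc2, Epas1, Il4, F2rl2, Gask1a, Gata3, Adamtsl3 and Marchf10. Epas1 reached 0.586 and 1.18 FPKM in iTreg cells, the highest of the other media, and Gata3 had 10.9 and 10.9 FPKM there. The largest margins below were those of Il18r1, Gpr65, Zbtb32, Rgs1 and Tgtp1. Zbtb32, a zinc finger repressor gene, had 0.664 and 0.452 FPKM in the Th2 libraries, against 5.48 and 5.24 FPKM in the Th0 libraries, while the other 5 media held at least 8.55 FPKM. Rgs1, a regulator of G protein signals, had 11.2 and 14.4 FPKM in the Th2 libraries, against 27.7 and 68.1 FPKM in the Th0 libraries and changed by -1.70 ± 0.31 (SE), with a limma adjusted p of 0.0048. Tgtp1 had 0.00263 and 1.39 FPKM in the Th2 libraries, against 4.93 and 5.44 FPKM in the Th0 libraries; its call was lost without Th2 replicate 1 or either Th0 library (limma adjusted p of 0.11 to 0.15). The Th1 and iTreg media, for which no antibody to IL-2 is named and of which iTreg holds added IL-2, gave 2669 (25.0%) and 6839 (64.1%) called genes against Th2 cells. Of the 13 tested STAT6 targets 7 were higher and none lower in Th2 than in Th1 cells, where 10.8% of all tested genes were higher. Set against iTreg cells, 10 were higher and 2 lower in Th2 cells, where 38.3% of all tested genes were higher. Of the 19 tested Th1 genes none was higher and 17 were lower in Th2 than in Th1 cells, where 14.2% of all tested genes were lower.

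**Figure D5:**
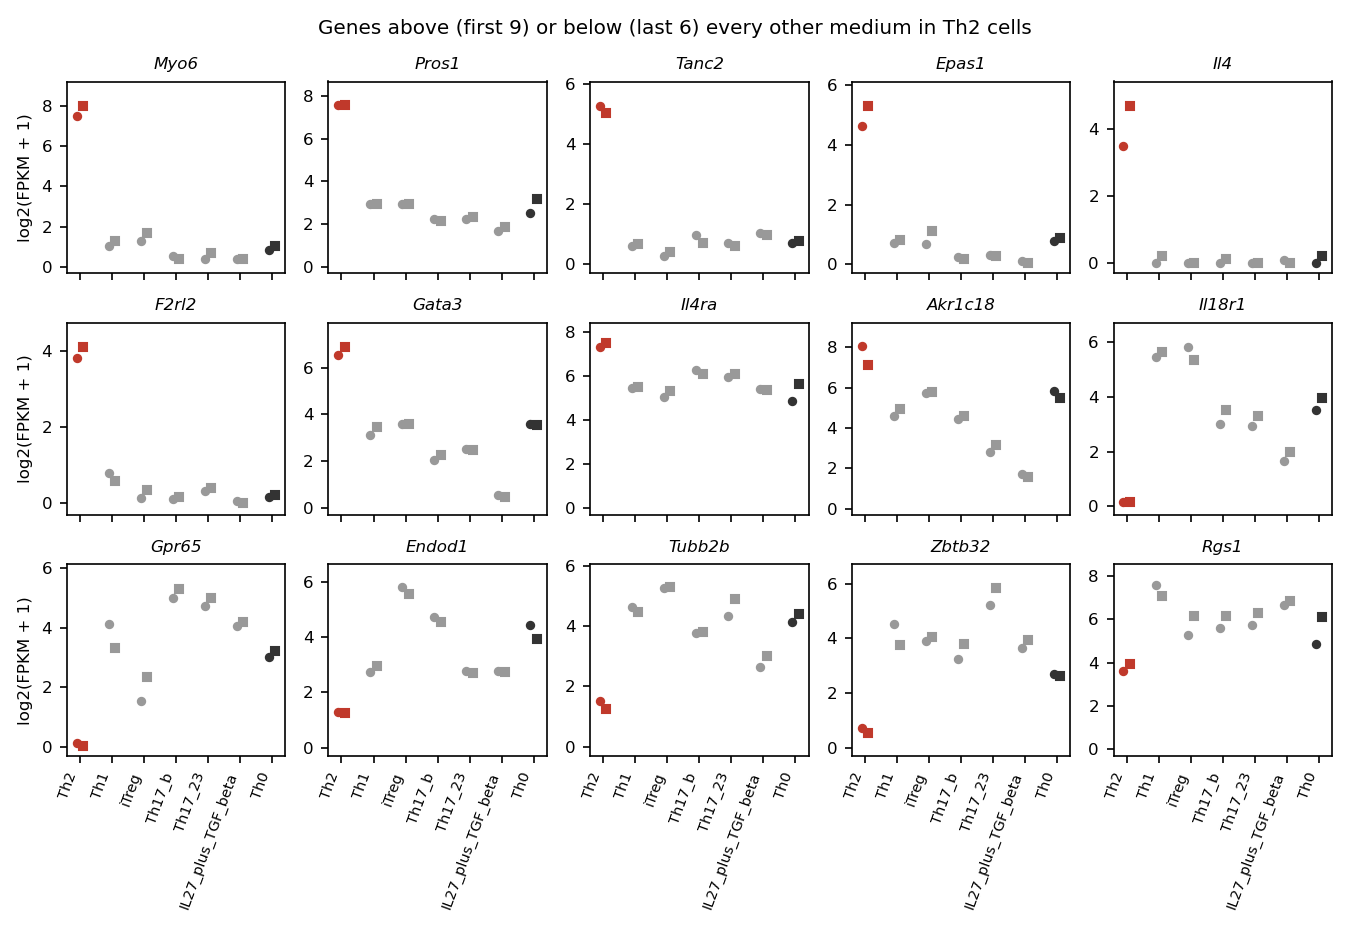
Levels as log2(FPKM + 1) in the 2 libraries of each medium (circles replicate 1, squares replicate 2), with Th2 in red at the left, Th0 in black at the right and the other media in grey. The first 9 genes are highest in both Th2 libraries and the last 6 are lowest in both; Il18r1 is at 0.112 and 0.108 FPKM in Th2 cells and at 10.3 and 14.6 FPKM in Th0 cells.

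Satb1 differed in its transcripts as well as in its sum. NM_001163631 had 102 and 100.1 FPKM in the Th2 libraries, against 9.40 and 6.39 FPKM in the Th0 libraries. NM_009122 had 49.7 and 63.9 FPKM in the Th2 libraries, against 22.4 and 39.6 FPKM in the Th0 libraries. The first made up 62.6% and 57.1% of the gene's sum in the Th2 libraries and 22.0% and 11.6% in the Th0 libraries. Of 1832 genes with 2 or more transcripts and a sum of 5 FPKM or more in all 4 libraries, 11 had a transcript whose share shifted by 20 points or more the same way in both tables; no test was made on shares. Adk, the adenosine kinase gene, was another, with NM_001243041 at 58.9% and 48.0% in the Th2 libraries, against 26.3% and 16.3% in the Th0 libraries. The starts of the Satb1 transcripts lie 6059 bases apart on the minus strand of chromosome 17 in GRCm38.p6, and their windows are shown because the shift concerns them; neither holds TTCNNNNGAA.
Satb1 start of NM_001163631, chr17:51826539-51826838, minus strand: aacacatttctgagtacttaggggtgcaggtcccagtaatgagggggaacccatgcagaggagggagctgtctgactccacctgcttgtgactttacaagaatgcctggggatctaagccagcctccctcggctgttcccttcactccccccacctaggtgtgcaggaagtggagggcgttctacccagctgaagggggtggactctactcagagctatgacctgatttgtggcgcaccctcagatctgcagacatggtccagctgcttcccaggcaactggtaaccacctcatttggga
Satb1 start near NM_009122, chr17:51832598-51832897, minus strand: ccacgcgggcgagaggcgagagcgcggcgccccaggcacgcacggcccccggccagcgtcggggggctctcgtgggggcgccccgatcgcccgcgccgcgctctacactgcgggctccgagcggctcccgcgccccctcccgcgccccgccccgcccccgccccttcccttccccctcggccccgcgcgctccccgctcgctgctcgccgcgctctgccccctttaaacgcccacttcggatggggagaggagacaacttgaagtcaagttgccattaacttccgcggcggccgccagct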

How the data were processed

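Per the labels' protocols, total RNA was extracted with a mirVana kit and sequenced after TruSeq preparation. The build mm9, Cufflinks 1.3.0 and TopHat2 2.0.3 are named, per the submitters' processing notes, without roles. The authors deposited FPKM in 2 tables of 30028 transcripts, replicate 1 of every medium in one and replicate 2 in the other; whether they were scaled together, and strand, are not given in the sources used here. Read totals are not in FPKM, so no counting interval is given.

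Transcripts were named by RefSeq accession (98.5%) or table symbol (286) and summed. limma 3.58.1 in R 4.3.3 was run on log2(FPKM + 1) of all 14 libraries with 7 media and the table as terms (lmFit, eBayes with trend; 6 residual degrees of freedom); p-values are two-sided with Benjamini-Hochberg adjustment over 10664 genes, called under 0.05. With 2 libraries a group no exact permutation test can reach that threshold. Th2 against Th1, Th2 against iTreg and Th2 against each other medium came from the same fit. On simulated data over 10664 genes for Th2 against Th0 24 of 50 genes changed by log2 0.5 were recovered, 44 of 50 by 1, 50 of 50 by 2 and 50 of 50 by 3, beside 10 false calls among 10464 genes. The simulated noise was drawn independently for each gene and library, without a table effect or errors shared between genes. Changes were put only into genes with a mean log2(FPKM + 1) above 1 in Th0 cells. These counts therefore do not give the share of false calls in the real data.

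Named genes are the 15 largest rises and falls called the same way in both tables (skipping 3 unnamed or small RNA genes), up to 5 of smallest p per list, lineage genes, the largest margins against all media, the 10 most abundant changed genes and those whose tables differ most; part of them is given, and some are not reported here. Members, lists and named genes were chosen with earlier results of these data known.

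Alternatives were no table term, a pseudocount of 0.1, other filters on low FPKM, quantile and median scaling, no trend, Th2 and Th0 libraries alone, the highest transcript, and leaving out each library.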

Additional observations from a re-analysis of the deposited data

How the results depend on the processing

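The 2035 calls of Th2 against Th0 numbered 761 (294 higher, 467 lower) when the Th2 and Th0 libraries were fitted alone without the table term, an alternative added after the data were seen that has 2 residual degrees of freedom. They numbered 1008 to 1646 (377 to 502 higher, 631 to 1144 lower) without 1 library, and Th2 against Th1 then had 1760 to 2523. Quantile normalization gave 992 higher calls. A pseudocount of 0.1 gave 51 genes lower in Th2 than in each other medium. Under the other settings run, these counts stayed within 1.5 times.

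Replicate numbers are shared across media and mark the table alone: replicate differences correlated at 0.25 between Th2 and Th0 and between -0.139 and 0.377 over media. Without the replicate block there were 1466 calls, 489 higher and 977 lower, and with the block in the Th2 and Th0 libraries alone 1438.

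Of 113 called genes named, 87 kept call and direction in every setting that tested them, which were fewer than all 15 for 7 of them. Direction turned for uncalled genes: Cd3e was 0.017 with quantile and 0.016 with median scaling, Cd8b1 0.0011 with quantile normalization and Socs2 0.0056 with the highest transcript. Without 1 library Cd3e was -0.17 to 0.063, Il2ra -0.37 to 0.79, Irf1 -0.24 to 0.0065, Lta -2.63 to 0.062 and Socs2 -0.56 to 0.22. The causes were not tested. Depth limits genes near 0 FPKM, whose changes grow with a smaller pseudocount.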

Other observations

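Some gene families had several called members; these families were picked after their values were seen, so their counts are descriptions. All 3 H2-DM chains, which exchange peptides on class II molecules, were called higher, where 6.02% of all tested genes were. H2-DMb1 and H2-DMb2 averaged under 1 FPKM in Th0 cells and passed the filter through Th2 cells alone. H2-DMa had 86.9 and 89.9 FPKM in the Th2 libraries, against 15.7 and 22 FPKM in the Th0 libraries, and H2-DMb1 had 6.22 and 6.19 FPKM in the Th2 libraries, against 0.551 and 0.605 FPKM in the Th0 libraries. Cd74, the class II invariant chain, was not called, with 33.4 and 62.9 FPKM in the Th2 libraries, against 36.4 and 59.4 FPKM in the Th0 libraries. Of the protease-activated receptor family, F2r had 49.3 and 54.1 FPKM in the Th2 libraries, against 7 and 9.24 FPKM in the Th0 libraries. It rose by 2.54 ± 0.10 (SE), with a limma adjusted p of 4.7e-07. F2rl2 is described above, F2rl1 rose by 0.43 ± 0.08 and F2rl3 was not called. Akr1c12 and Akr1c13, relatives of Akr1c18, rose by 1.41 ± 0.22 and 1.36 ± 0.24.

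On the other side, 8 of 8 genes of the Ifi200 family looked at were called lower, from Aim2 at -0.82 ± 0.07 to Ifi203 at -2.28 ± 0.14. Of all tested genes 13.1% were lower. Ifi205, Ifi208, Ifi211 and Ifi214 were under 1 FPKM in both Th2 libraries and passed the filter through Th0 cells alone. The count of 8 thus partly follows from the filter, and reads may be shared within this family. Of 6 beta tubulin genes looked at, Tubb2b, Tubb2a (-1.65 ± 0.16) and Tubb6 (-1.27 ± 0.24) were lower, while Tubb5, the most abundant, had 856 and 782 FPKM in the Th2 libraries, against 898 and 810 FPKM in the Th0 libraries, and was not called. All of these changes are on the log2(FPKM + 1) scale with the standard error.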
